A study of Mus musculus with 7 samples.

Results

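The collagen genes of connective tissue were taken as a set of 10, namely Col1a1, Col1a2, Col3a1, Col5a1, Col5a2, Col6a1, Col6a2, Col6a3, Col12a1 and Col14a1, out of 18088 protein-coding genes placed in both genome builds used here. They were chosen by name and not by their values, though earlier results of these data were known. For each gene, peaks of histone marks were counted at the transcription start site (TSS, up to 1 kb on either side), in the gene body, and from 50 kb upstream to 50 kb downstream of the gene. The windows of Col3a1 and Col5a2 overlap, and so do those of Col6a1 and Col6a2, which left 8 regions in which each peak was counted once.

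The study used ChIP-Seq of active histone marks to search for enhancers of Sox9, which encodes the master regulator of chondrocytes. Peak lists of 6 of the 7 samples were analysed. Primary chondrocytes from the rib cartilage of newborn mice, for which the labels give no genotype, had 2 H3K27ac libraries (replicates 1 and 2) and 1 H3K4me2 library. Primary dermal fibroblasts from the skin of newborn mice had 1 H3K27ac library. Rib chondrocytes of WT mice and of mice with both Sox9 enhancers E160 and E308 deleted on both alleles (E160Δ/Δ E308Δ/Δ, made with CRISPR) had 1 H3K27ac library each, and the latter is called the deletion list. The labels name no treatment, and the number of mice behind each library is not given in the sources used here. The methods call the H3K27ac replicates biological, and the labels do not say from which mice or cultures each came.

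Collagens are secreted as triple helices and give connective tissue its strength. Types I and III form the thick fibrils of skin, bone and tendon, and type V is built into the same fibrils and sets their diameter. Type VI forms beaded filaments around cells, and types XII and XIV lie on the fibril surface and link it to the matrix. Dermal fibroblasts are known as a main source of these collagens, whereas the fibrils of hyaline cartilage are built mainly from types II, IX and XI. Active promoters and enhancers carry the acetylated histone H3K27ac, and the methylated form H3K4me2 is found at promoters and enhancers more widely.

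The lists held 25580 and 20450 peaks for chondrocyte replicates 1 and 2, 66355 for H3K4me2, 19454 for fibroblasts, 33369 for WT and 25213 for the deletion list. Read numbers are not part of the lists, so their depth is unknown. The positions of replicate 2 are those of GRCm38 and all others those of mm9, so replicate 2 was compared by gene and by distance from the TSS alone. Replicate 1, H3K4me2 and the fibroblast list have 5 columns with a score for each peak, and the other 3 are narrowPeak lists. Scores were used only to rank peaks within a list, and a peak's rank is given as the top percent of its list, where a lower percent is a higher score. The widest peak of any 5-column list was 8512 bp, against 46443, 29892 and 20786 bp in replicate 2, WT and the deletion list. Of 14 chondrocyte marker genes, 8 had a promoter peak in replicate 1, 10 in replicate 2, WT and the deletion list, 11 in H3K4me2 and 1 (Sox9) in fibroblasts. Replicate 1 was mixed at hallmark genes. It had no promoter peak at Sox9, Sox6 or Col2a1, all 3 of them marked in WT and replicate 2. It also had no peak in the gene body of Sox9 or Col2a1. Sox5 was unmarked in every H3K27ac list. The 8 markers with a promoter peak in replicate 1 were Acan, Col9a1, Col11a2, Comp, Hapln1, Matn3, Lect1 and Chad. Fibroblasts marked none of these 8. Coverage of Col2a1 was 84.1% in replicate 2, 93% in WT, and 0% in replicate 1, H3K4me2 and fibroblasts, the 3 lists with 5 columns. At Sox9 it was 72% in replicate 2, 100% in WT, 74.7% in H3K4me2, 20.8% in fibroblasts and 0% in replicate 1. A gene without a peak in a 5-column list is therefore reported below as that, and not as a gene without the mark. Of 12 fibroblast markers, 10 had a promoter peak in fibroblasts, 11 in H3K4me2, 9 in WT and 8 in the deletion list. Chondrocyte replicates 1 and 2 marked 4 and 7 of them. The fibroblast list had no promoter peak at Prrx1 and Twist1. Coverage of Twist1 was 0% in fibroblasts, 93.1% in replicate 1, 81.6% in replicate 2, and 100% in WT and the deletion list. Prrx1, also without a promoter peak in replicate 1, was covered less in fibroblasts than in each chondrocyte H3K27ac list. Markers of keratinocytes, endothelium, muscle, blood and osteoblasts had at most 1 promoter peak per cell type in any H3K27ac list.

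The promoters of the set fell into 3 patterns. The 3 genes of the thick fibrils, Col1a1, Col1a2 and Col3a1, had a promoter peak in all 4 chondrocyte H3K27ac lists and none in the dermal fibroblast list. Both type V genes and 2 of the 3 type VI genes, Col6a1 and Col6a2, had one in all 6 lists. Col6a3, Col12a1 and Col14a1 had one in fibroblasts and none in chondrocyte replicate 1. Among the other chondrocyte H3K27ac lists, Col6a3 had one in replicate 2, WT and the deletion list. Col12a1 had one in WT and the deletion list, and Col14a1 in WT alone. Marked promoters are those with any peak base at most 1 kb from the TSS.

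In numbers, chondrocyte replicate 1 marked 7 of the 10 promoters, against 44.3% of all genes, and replicate 2 marked 8, against 43.1%. The mean of the replicates was 7.5 ± 0.707 (SD, n = 2). H3K4me2 marked 8 (66.3% of all genes), fibroblasts 7 (47.5%), WT 10 (50% of all genes) and the deletion list 9 (47.1%). For a count of 7 of 10, the exact binomial (Clopper-Pearson) 95% interval of the share is 34.8% to 93.3%, which includes the shares of 8 and 9 of 10. Such intervals cover counting error only. Both replicates marked the same 7 genes (38.5% of all genes), and replicate 2 marked Col6a3 in addition. The 4 genes marked in all 6 lists compare with 36.1% of all genes, and the same 4 were those marked in all 5 H3K27ac lists (36.6%) and in both replicates and fibroblasts (36.9%). A peak anywhere in the gene body was present at 10 genes in replicate 1 (49.7% of all genes), 9 in replicate 2 (48.5%), 10 in H3K4me2 (73.2%), 8 in fibroblasts (52.5%), 10 in WT (55.2%) and 10 in the deletion list (51.2%). Col14a1 was the gene without one in replicate 2, and Col1a1 and Col3a1 in fibroblasts. With a single library per group except the chondrocyte replicates, no difference between groups could be tested.

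The fibroblast and replicate 1 lists differed at 6 of the 10 promoters, 3 in each direction. A promoter peak in replicate 1 and none in fibroblasts, as at Col1a1, Col1a2 and Col3a1, occurred at 3.08% of all genes. The same 3 genes were marked in WT and not in fibroblasts (4.64% of all genes). A promoter peak in fibroblasts and none in replicate 1, as at Col6a3, Col12a1 and Col14a1, occurred at 6.35%. WT chondrocytes had a promoter peak at all 6 of these genes, so that the second group of 3 did not differ from fibroblasts in that library. In such bulk libraries, fewer cells that carry a mark and less of the mark per cell cannot be told apart.

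**Figure D1:**
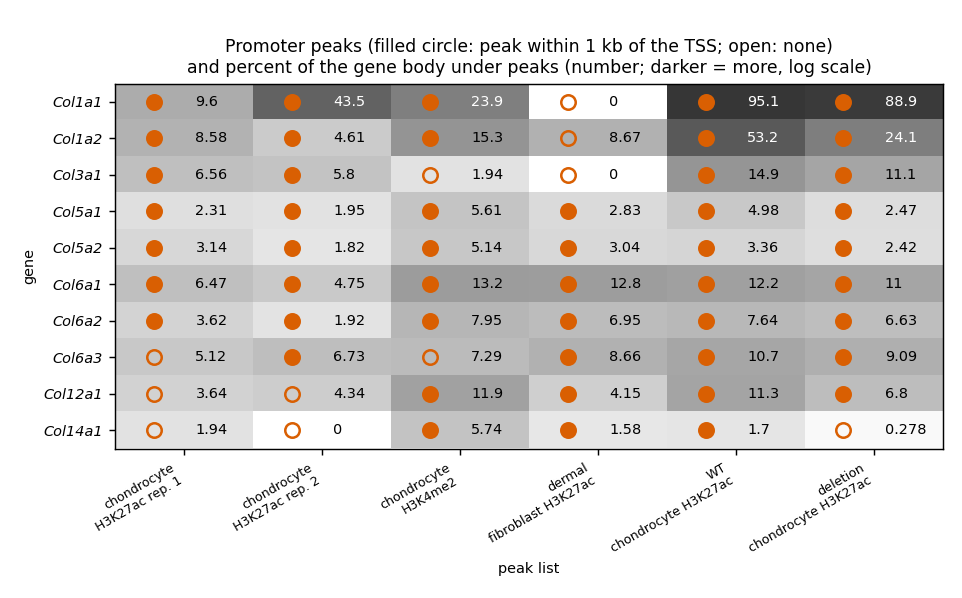
Promoter peaks and gene body coverage of the 10 genes (rows) in the 6 peak lists (columns). A filled circle is a peak within 1 kb of the TSS, an open circle none, and the number with its grey shade is the percent of the gene body under peaks (darker is more, log scale). Open circles in the fibroblast column fall on Col1a1, Col1a2 and Col3a1, and the highest coverage was 95.1%, for Col1a1 in WT.

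Promoter sequences were looked up for all 10 genes in a table of RefSeq promoters (GRCm38.p6), which held 6 of them: Col1a2, Col3a1, Col5a1, Col6a1, Col6a2 and Col6a3. Col1a1, Col5a2, Col12a1 and Col14a1 were not printed. Shown are 4 examples of the patterns above, each the 250 bases before the RefSeq start, 5′ to 3′ on the strand of the gene. Capitals mark CCAAT or GGGCGG on either strand and TATAAA on the sense strand. Col3a1 (chr1:45311288-45311537, plus strand) had a promoter peak in all 4 chondrocyte H3K27ac lists and none in the fibroblast list. Col5a1 (chr2:27886175-27886424, plus strand) and Col6a2 (chr10:76623631-76623880, minus strand, the upstream one of 2 entries) were marked in every list. Col6a3 (chr1:90843972-90844221, minus strand) was marked in fibroblasts and not in replicate 1.
Col3a1: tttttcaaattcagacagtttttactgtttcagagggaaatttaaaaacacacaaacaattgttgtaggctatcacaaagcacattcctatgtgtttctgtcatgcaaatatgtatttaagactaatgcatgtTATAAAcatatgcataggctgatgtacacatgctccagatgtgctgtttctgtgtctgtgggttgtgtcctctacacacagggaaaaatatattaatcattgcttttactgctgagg
Col5a1: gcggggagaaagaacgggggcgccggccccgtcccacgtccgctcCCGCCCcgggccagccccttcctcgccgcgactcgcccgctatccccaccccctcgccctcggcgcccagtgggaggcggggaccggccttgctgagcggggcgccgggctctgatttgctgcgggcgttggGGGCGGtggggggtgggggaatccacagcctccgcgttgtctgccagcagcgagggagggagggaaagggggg
Col6a2: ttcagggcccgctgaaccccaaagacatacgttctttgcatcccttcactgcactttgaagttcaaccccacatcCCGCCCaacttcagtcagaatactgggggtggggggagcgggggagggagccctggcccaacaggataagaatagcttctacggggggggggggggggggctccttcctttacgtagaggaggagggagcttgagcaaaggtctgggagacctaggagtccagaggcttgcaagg
Col6a3: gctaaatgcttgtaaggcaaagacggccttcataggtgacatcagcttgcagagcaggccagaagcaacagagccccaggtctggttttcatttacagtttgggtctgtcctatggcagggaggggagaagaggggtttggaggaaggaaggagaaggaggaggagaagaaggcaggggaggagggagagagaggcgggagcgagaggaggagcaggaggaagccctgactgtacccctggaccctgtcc

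These windows differed widely in base composition. The Col3a1 window had a GC content of 35.2% and 0 CpG dinucleotides, and TATAAA from base -117 to -112 before the start. Col5a1 stood at the other end, with a GC content of 76.4%, 28 CpG and GGGCGG at 2 places, where Col6a2 had 59.2%, 6 CpG and 1 place and Col6a3 had 57.2%, 3 CpG and no match. Over all 32851 promoters of the table, the median was a GC content of 52.4% and 6 CpG. TATAAA was present in 7.59% of them, GGGCGG in 32.7% and CCAAT in 33.8%. Of the windows not printed, that of Col1a2 (GC content 62.0%) held CCAAT from base -109 to -105 and GGGCGG at 2 places, and that of Col6a1 (56.0%) held no match. Replicate 2, the list on this build, covered all 250 bases at Col5a1 and Col6a1, 77 at Col1a2 and 0 at Col3a1, Col6a3 and this Col6a2 entry. A match is a description of the letters and not a binding site.

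Col1a1 encodes the α1 chain of type I collagen and lies on chr11:94797538-94814356 (mm9, plus strand). Its promoter peak was 1711 bp wide in chondrocyte replicate 1, and in replicate 2 a pair of peaks of at most 1177 bp lay within 1 kb of the TSS. H3K4me2 had a peak of 4021 bp. In WT a single peak of 19419 bp ran from -4.04 kb to 15.4 kb and touched all 51 merged exons of the gene, and in the deletion list a peak of 18152 bp touched 48. The fibroblast list had no peak within 21.2 kb of the TSS and none in the gene body. The percent of the gene body under peaks was thus 9.60 in replicate 1, 43.5 in replicate 2, 23.9 in H3K4me2, 0 in fibroblasts, 95.1 in WT and 88.9 in the deletion list. The order of the chondrocyte H3K27ac lists spanned nearly the whole scale, and fibroblasts lay below all of them.

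The fibroblast list had peaks in the flanks of Col1a1 although it had none at the gene. A fibroblast peak of 1826 bp at -23.8 kb had partners in the other 4 mm9 lists (434 bp at -22.8 kb in replicate 1, 1188 bp at -23.6 kb in WT). Downstream, an 818 bp fibroblast peak at 21.2 kb lay within a replicate 1 peak of 3849 bp that began at 19 kb, and replicate 2 had 1176 bp at 21.2 kb. The highest-scoring fibroblast peak of the window (5087 bp, top 33.3%) lay at 52.5 kb on the promoter of another gene, Ppp1r9b.

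Col1a2 encodes the α2 chain, the partner of Col1a1 in type I collagen, and lies on chr6:4454814-4491543 (plus strand). The promoter peak was 3153 bp in replicate 1, 1656 bp in replicate 2, 5627 bp in H3K4me2, 9178 bp in WT and 3485 bp in the deletion list. The deletion list had a further promoter peak of 2221 bp that began at -2.13 kb, and replicate 2 a further one of 299 bp. In fibroblasts the nearest peak began at 13.7 kb. That peak was 3185 bp wide, touched exons 16 to 25 of 54, and overlapped a WT peak of 4092 bp at 13.8 kb. Replicate 1 had no peak there. Coverage of the gene body was therefore almost equal in fibroblasts (8.67%) and replicate 1 (8.58%), from different segments of the gene, and was 53.2% in WT, 24.1% in the deletion list, 15.3% in H3K4me2 and 4.61% in replicate 2. The mm9 gene model starts 804 bp upstream of the RefSeq start, and with the RefSeq start the promoter calls of Col1a2 were the same. Counted from any annotated transcript start, Col1a2 had a fibroblast promoter peak, and within 500 bp of the TSS it had none in replicate 1.

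Upstream of Col1a2, fibroblasts and chondrocytes shared their peaks. At -49.4 kb the fibroblast list had a peak of 3289 bp in its top 3.42%, the highest rank of any fibroblast peak in the 8 regions, and replicate 1 had 2160 bp at -48.4 kb (top 16%). WT had 3519 bp at the same place. At -18.7 kb the fibroblast peak was 4872 bp wide and overlapped all 3 replicate 1 peaks that lay between -17.2 and -14.0 kb, a WT peak of 3619 bp and a deletion peak of 3253 bp. The far upstream region of Col1a2 is known for driving expression in fibroblasts of transgenic mice. The 201 bases around the WT summit at -15.9 kb are shown because every mm9 list had a peak there (chr6:4438842-4439042, mm9, plus strand, between genes). Capitals mark the 11 bases at the summit.
Col1a2 upstream: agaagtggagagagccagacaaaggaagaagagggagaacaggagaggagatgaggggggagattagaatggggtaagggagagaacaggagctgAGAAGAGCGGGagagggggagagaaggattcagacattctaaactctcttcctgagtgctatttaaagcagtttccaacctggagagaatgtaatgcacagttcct

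Col3a1 encodes the chain of type III collagen, which is abundant in skin and vessels, and lies on chr1:45368383-45406551 (plus strand). Its promoter peak was 2317 bp in replicate 1, 1302 bp in replicate 2, and 5779 and 1920 bp in WT and the deletion list, and fibroblasts and H3K4me2 had none. The nearest H3K4me2 peak (742 bp) began at 1.97 kb. Within the gene body, coverage was 6.56% in replicate 1, 5.80% in replicate 2, 1.94% in H3K4me2, 0% in fibroblasts, 14.9% in WT and 11.1% in the deletion list. Fibroblast peaks were confined in this window to the flanks and the Col5a2 gene, the nearest of them 1129 bp at -15.3 kb. A fibroblast peak of 1265 bp at -21.2 kb overlapped peaks of replicate 1 (602 bp) and WT (566 bp), and the deletion list had none there.

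**Figure D2:**
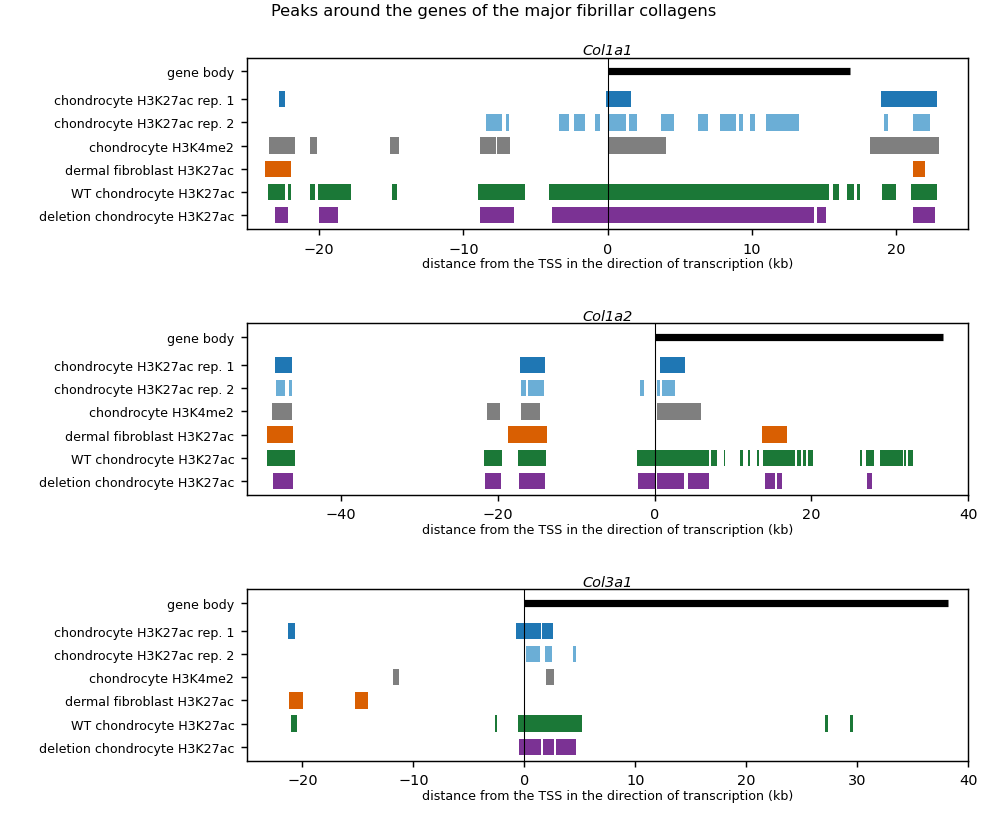
Peaks of the 6 lists (rows, 1 colour each) along Col1a1, Col1a2 and Col3a1, by distance from the TSS in kb, with the gene body as a black bar. Replicate 2 is drawn from the same TSS after its GRCm38 positions were set to the mm9 gene model. The WT peak over Col1a1 runs from -4.04 kb to 15.4 kb where the fibroblast row is empty, and at Col1a2 all rows have peaks near -16 kb while the fibroblast row has none at the TSS.

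Both type V genes had a promoter peak of at least 2754 bp in every list. Col5a1 (chr2:27741945-27895034, plus strand) encodes the α1 chain of type V collagen, which starts fibril assembly. Its promoter peak was 4349 bp in replicate 1, 3067 bp in replicate 2, 6955 bp in H3K4me2, 6322 bp in fibroblasts, 5948 bp in WT and 5121 bp in the deletion list. In the 5 mm9 lists it touched the first of 66 exons. Coverage of this long gene was low throughout, from 1.95% in replicate 2 to 5.61% in H3K4me2, with 2.31% in replicate 1 and 2.83% in fibroblasts.

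Upstream of Col5a1, a peak near -28 kb was present in all 6 lists, 1363 bp wide in replicate 1, 1143 bp in replicate 2 and 2106 bp in fibroblasts. The other 4 fibroblast peaks of the window, at -38.6, -43.5, -44.4 and -50.6 kb, had no replicate 1 peak, whereas all 6 fibroblast peaks overlapped a WT peak. The peak at -38.6 kb (1557 bp, top 43.4%) was the highest-scoring fibroblast peak in the 8 regions without a replicate 1 peak. No H3K4me2 peak overlapped it, although an H3K4me2 peak of 997 bp ended close by, at -38.67 kb. Replicate 2 had 208 bp inside the fibroblast peak, at -37.6 kb.

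Col5a2 (chr1:45431166-45560127, minus strand) encodes the α2 chain of type V collagen. Its promoter peak was 3686 bp in replicate 1, 2754 bp in replicate 2, 3664 bp in H3K4me2, 3469 bp in fibroblasts, 3775 bp in WT and 3251 bp in the deletion list. It was in the top 1.15% of replicate 1 and the top 12.4% of fibroblasts. Gene body coverage was 3.14% and 3.04% in the same order, 1.82% in replicate 2 and 3.36% in WT. A peak at -39 kb was shared (2116 bp in replicate 1, and 908 and 1124 bp in fibroblasts). The next peak, at -29.6 kb, was not: it was 1853 bp wide and in the top 5.49% of replicate 1, 2099 bp in H3K4me2, 1804 bp in WT and 1575 bp in the deletion list. Fibroblasts had no peak there, and replicate 2 had 325 bp at -28.8 kb. It was the highest-scoring replicate 1 peak in the 8 regions without a fibroblast peak.

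Col6a1 (chr10:76171537-76188913, minus strand) and Col6a2 (chr10:76058507-76086375, minus strand) are neighbours that encode the α1 and α2 chains of type VI collagen. At Col6a1 the promoter peak was 2041 bp in replicate 1, 1716 bp in replicate 2, 3119 bp in H3K4me2, 3062 bp in fibroblasts, 3428 bp in WT and 2874 bp in the deletion list. At Col6a2 it was 1010, 536, 2792, 2772, 2682 and 1849 bp in the same order. The deletion list had 2 promoter peaks at Col6a2, and the width is that of the higher-scoring one. Fibroblasts thus had the wider peak when set beside either chondrocyte replicate, and peaks close to those of WT in width. The gene bodies followed, with 12.8% of Col6a1 under fibroblast peaks against 6.47%, 4.75%, 12.2% and 11.0% in replicate 1, replicate 2, WT and the deletion list. At Col6a2 the values were 6.95% in fibroblasts, 3.62% in replicate 1, 1.92% in replicate 2, and 7.64% and 6.63% in WT and the deletion list.

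Around these genes the fibroblast list held 10 peaks, replicate 2 also 10, and replicate 1 held 3. All 3 replicate 1 peaks had a fibroblast peak, and 7 of the 10 fibroblast peaks had no replicate 1 peak. By distance from the TSS, 3 of these 7 had a replicate 2 peak. Upstream of Col6a2, a 2311 bp fibroblast peak at -28.7 kb (top 48.6%) overlapped H3K4me2, a WT peak of 3897 bp and a deletion peak of 3248 bp, and replicate 2 had 650 bp inside it. The fibroblast peak of 936 bp at -13.3 kb held 218 bp of replicate 2. Upstream of Col6a1, fibroblast peaks of 820 bp at -8.16 kb and 1551 bp at -7.26 kb overlapped a WT peak of 2338 bp, and replicate 2 had up to 711 bp at the second of them. Fibroblast peaks downstream of Col6a1 at 25.2 kb (668 bp) and 30.4 kb (1068 bp) overlapped no peak in any of the other 4 mm9 lists. An H3K4me2 peak of 851 bp ended close to the first of them, at 24.97 kb.

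The α3 chain of type VI collagen is encoded by Col6a3 (chr1:92663435-92740529, minus strand). Its promoter peak was 6918 bp in fibroblasts, 7317 bp in WT, 2282 bp in the deletion list and 707 bp in replicate 2. In replicate 1 the nearest peak, 3949 bp wide and free of exons, began 3 kb downstream of the TSS. Replicate 2 had a peak of 3932 bp at 2.77 kb and the deletion list a peak of 4020 bp at 2.67 kb. The single fibroblast and WT peaks covered both the TSS and this intronic segment. H3K4me2 had no peak within 19.4 kb of the TSS. The gene body was covered to 8.66% in fibroblasts, 5.12% in replicate 1, 6.73% in replicate 2, and 10.7% and 9.09% in WT and the deletion list.

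Col12a1 (chr9:79446798-79566638, minus strand) encodes the chain of type XII collagen. Fibroblasts had a promoter peak of 1793 bp, H3K4me2 of 6879 bp, WT of 5905 bp and the deletion list of at most 1576 bp. The nearest replicate 1 peak, 1471 bp wide, began at 1.42 kb, so that a promoter window of 2 kb would include it. The call in replicate 2 rested on the gene model. The RefSeq model is 2314 bp longer, and replicate 2 had no peak within 1 kb of its start. With the gene models joined at their 3′ ends, replicate 2 did have a peak within 1 kb of the mm9 start. Fibroblast coverage of the gene body was 4.15%, against 3.64% in replicate 1, 4.34% in replicate 2, and 11.3% and 6.8% in WT and the deletion list. Near the 3′ end, replicate 1 had 1677 bp at 109 kb over exons 59 and 60 of 66 (top 16.8%), WT had 3888 bp, the deletion list 2636 bp and H3K4me2 3664 bp, and fibroblasts had none.

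Col14a1 (chr15:55139305-55352358, plus strand) encodes the chain of type XIV collagen, which is found in dermis and tendon. It had the fewest H3K27ac promoter peaks of the set, in 2 of the 5 lists. Fibroblasts had a promoter peak of 1381 bp in their top 69.4%. WT had 411 bp at 0.675 kb, in its top 83.9%. Replicate 1, replicate 2 and the deletion list had none, and their nearest peaks lay 25.3, 70.6 and 70.6 kb away. H3K4me2 had 3178 bp at this promoter, in its top 1.3%, and 1413 bp at -27.9 kb in its top 0.797%, where no H3K27ac list on mm9 had a peak. Coverage of the gene body was 1.94% in replicate 1, 0% in replicate 2, 5.74% in H3K4me2, 1.58% in fibroblasts, 1.70% in WT and 0.278% in the deletion list. Downstream, a replicate 1 peak of 1258 bp at 222.8 kb had partners in H3K4me2, WT and the deletion list and none in fibroblasts, and replicate 2 had 774 bp at 222.9 kb.

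**Figure D3:**
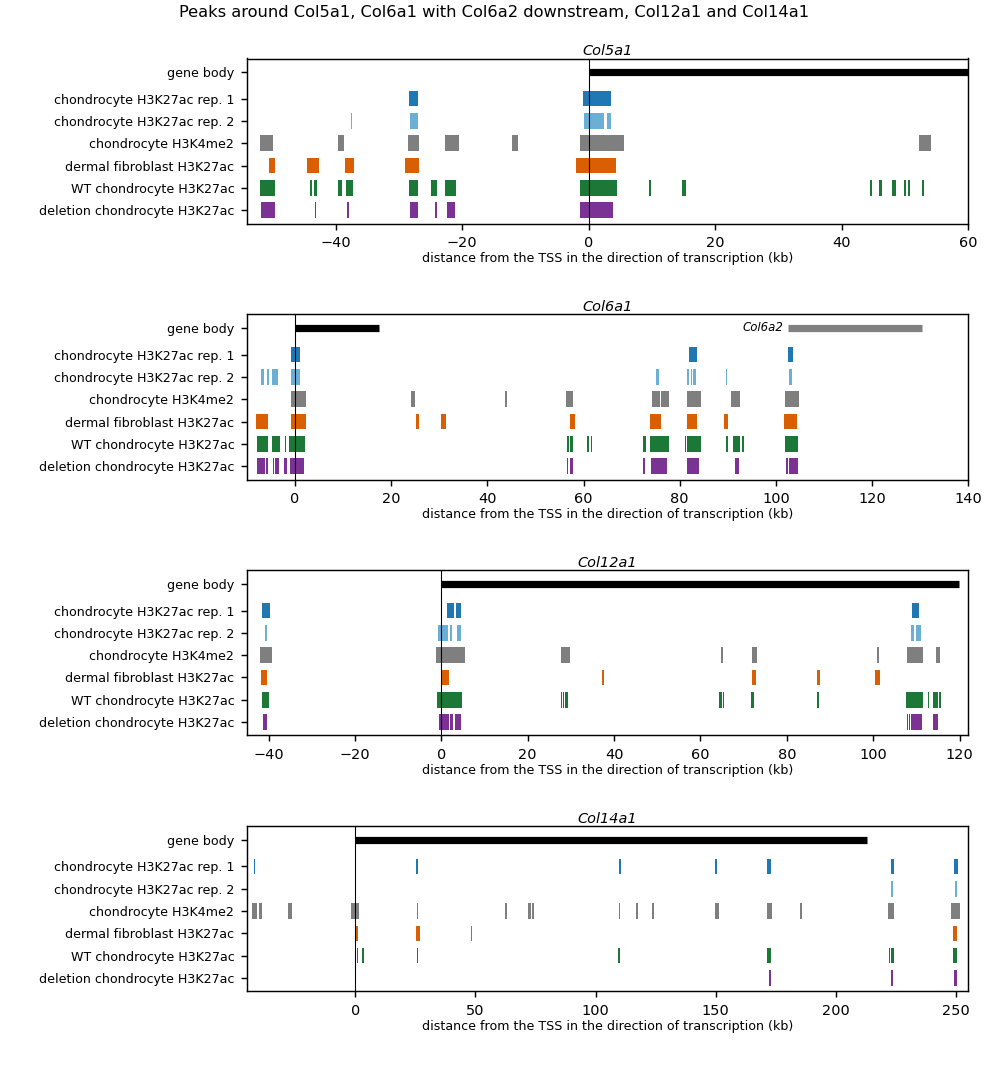
Peaks of the 6 lists (rows, 1 colour each) along Col5a1, Col6a1, Col12a1 and Col14a1, by distance from the TSS in kb, with the gene body in black (that of Col5a1 runs on past the edge) and the neighbouring Col6a2 in grey. Replicate 2 is drawn from the same TSS after its positions were set to the mm9 gene model. Fibroblast peaks without a replicate 1 peak stand at -38.6 kb of Col5a1 and at 25.2 and 30.4 kb of Col6a1, and the Col14a1 TSS has peaks in the H3K4me2, fibroblast and WT rows.

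Over all 10 genes, the percent of the gene body under peaks was higher in fibroblasts than in replicate 1 at 6 genes (22.2% of all genes, and 38.7% of those with a peak in either list) and lower at 4 (34.9% of all genes). The differences ran from -9.60 points at Col1a1 to 6.34 points at Col6a1, with a median of 0.299 points, where the median over all genes was 0. At Col1a2, Col5a1, Col5a2, Col12a1 and Col14a1 the difference was at most 0.525 points in either direction. Against WT, fibroblasts were higher at 1 gene, Col6a1 (18.3% of all genes). The direction thus depended on whether replicate 1 or WT was the chondrocyte list at Col1a2, Col5a1, Col6a2, Col6a3 and Col12a1. Between the chondrocyte replicates themselves, coverage of Col1a1 was 9.60% and 43.5%, a wider gap than any between fibroblasts and replicate 1.

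Peaks were also counted by whether they overlapped a peak of the other cell type. Of 39 replicate 1 peaks in the 8 regions, 16 (41.0%, 25.6% to 57.9%) had no fibroblast peak, against 48.3% of all replicate 1 peaks. Of 48 fibroblast peaks, 27 (56.3%, 41.2% to 70.5%) had no replicate 1 peak, against 37.6% of all, and 6 of the 27 had a replicate 2 peak by distance from the TSS. Of 112 WT peaks, 76 (67.9%, 58.4% to 76.4%) had no fibroblast peak, against 56.4% of all. These whole lists hold more promoter peaks than the regions do, so the shares were also set side by side for peaks over 1 kb from any annotated start.

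Outside promoters, 26 of 38 fibroblast peaks near the collagen genes had no replicate 1 peak (68.4%, 51.3% to 82.5%), and the share over the whole fibroblast list, 60.1%, lay inside that interval. For WT peaks without a fibroblast peak the shares were 74.5% (64.7% to 82.7%) and 76.9%. Replicate 1 peaks near the genes lacked a fibroblast peak in 13 of 29 cases (44.8%, 26.4% to 64.3%), where 74.1% of the whole list did. With WT as the partner list, 12 of 38 fibroblast peaks (31.6%, 17.5% to 48.7%) had none, against 49% of the whole list and, with promoters included, 12 of 48 (25%, 13.6% to 39.6%) against 26.2%. Between replicate 1 and WT, both chondrocyte lists, 6 of 39 replicate 1 peaks (15.4%, 5.86% to 30.5%) had no partner, against 24.6% of all, and outside promoters 6 of 29 (20.7%) against 39.6%. Peaks of 1 region are not independent, so these intervals are too narrow. Of the fibroblast peaks near the collagen genes, 21 of 48 (43.8%, 29.5% to 58.8%) had no chondrocyte H3K4me2 peak, against 18.3% of all fibroblast peaks, and outside promoters 20 of 38 (52.6%, 35.8% to 69.0%), against 35.7%. The region with the highest share of replicate 1 peaks lacking a fibroblast peak was that of Col14a1, with 6 of 8. By distance from the TSS, 28 of the 39 replicate 1 peaks had a replicate 2 peak within 1 kb, and 39 of 62 replicate 2 peaks had a replicate 1 peak within 1 kb. This rule is looser than the overlap of at least 1 bp used for the shares above. No whole-list share stands beside these replicate counts.

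**Figure D4:**
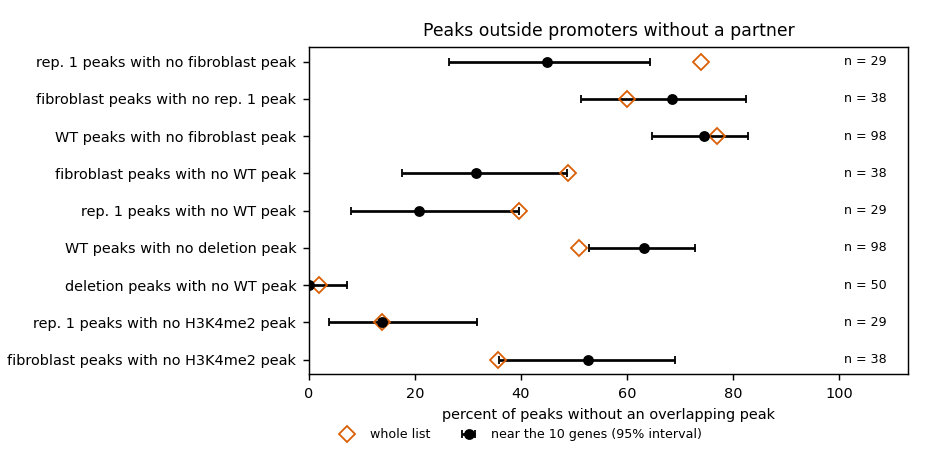
Percent of peaks outside promoters without an overlapping peak in another list (x axis), for peaks in the gene bodies and within 50 kb of the 10 genes (black points with exact 95% binomial intervals, n at the right) and for all peaks of the list over 1 kb from any annotated start (open diamonds). For the black points, promoters of the 10 genes were set by the 5′ end of each gene alone. Fibroblast peaks without a replicate 1 peak stand at 68.4% near the genes and 60.1% in the whole list, and WT peaks without a deletion peak at 63.3% and 50.9%.

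Sequences of 4 peaks between genes are shown because they mark where fibroblasts and replicate 1 differed. Each is the 201 bases around the WT summit inside the peak, on the plus strand of mm9, with the 11 bases at the summit in capitals. The first pair, upstream of Col5a1 (chr2:27703825-27704025) and Col6a2 (chr10:76113622-76113822), had a fibroblast peak and no replicate 1 peak. The second pair, upstream of Col5a2 (chr1:45588794-45588994) and downstream of Col14a1 (chr15:55362130-55362330), had a replicate 1 peak and no fibroblast peak.
Col5a1 upstream: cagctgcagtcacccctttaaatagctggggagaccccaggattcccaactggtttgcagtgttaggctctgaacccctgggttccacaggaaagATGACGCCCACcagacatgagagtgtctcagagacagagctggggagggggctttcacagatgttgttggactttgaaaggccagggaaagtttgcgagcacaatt
Col6a2 upstream: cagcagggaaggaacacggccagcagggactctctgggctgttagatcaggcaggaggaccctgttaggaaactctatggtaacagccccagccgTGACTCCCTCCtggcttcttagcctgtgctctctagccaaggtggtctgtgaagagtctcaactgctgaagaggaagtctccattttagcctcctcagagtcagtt
Col5a2 upstream: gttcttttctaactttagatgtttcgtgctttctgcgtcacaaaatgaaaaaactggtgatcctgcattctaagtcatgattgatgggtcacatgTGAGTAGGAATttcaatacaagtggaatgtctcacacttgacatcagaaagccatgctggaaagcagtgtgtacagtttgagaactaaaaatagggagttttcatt
Col14a1 downstream: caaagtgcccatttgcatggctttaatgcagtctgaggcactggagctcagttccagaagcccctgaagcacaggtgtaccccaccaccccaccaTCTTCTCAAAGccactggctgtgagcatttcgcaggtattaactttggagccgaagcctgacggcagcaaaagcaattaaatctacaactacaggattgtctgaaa

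Neither TGANTCA, the AP-1 motif, nor TGTGGT, the core of the RUNX motif, was found on either strand of these 4 windows or of the Col1a2 window, which says only that these letters are not in them. They were present in 4.57% and 11.6% of all WT summit windows of that length. The GC content was 53.2% at Col5a1, 54.7% at Col6a2, 37.8% at Col5a2 and 49.8% at Col14a1.

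Broad peaks, taken as 5 kb or wider, were frequent in the set in WT, and were also present in related gene lists. At 6 of the 10 genes such a peak lay on the gene or its promoter, namely 19419 bp at Col1a1, 9178 bp at Col1a2, 7317 bp at Col6a3, 5948 bp at Col5a1, 5905 bp at Col12a1 and 5779 bp at Col3a1. This was the case for 1.72% of all genes. In WT it was also the case for 2 of 8 cartilage collagen genes and 3 of 16 collagen synthesis genes, both listed below. Among the markers, it was the case for 4 of 14 of chondrocytes and 3 of 12 of fibroblasts. Replicate 2 had broad peaks at 4 of the 8 cartilage collagen genes. The Col1a1 peak was number 5 by width among the 33369 WT peaks, and it also covered the start of Gm17329, a gene annotated on the opposite strand inside Col1a1. The deletion list had broad peaks at 2 of the 10 (18152 bp at Col1a1 and 5121 bp at Col5a1; 0.741% of all genes). Fibroblasts had them at Col5a1 and Col6a3 (0.553%), H3K4me2 at Col1a2, Col5a1 and Col12a1 (2.94%), and neither replicate at any of the 10 (0.901% and 0.492%).

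Counterparts of the broad WT peaks in the 5-column lists were partial or missing. Replicate 1 covered 8.81% of the Col1a1 peak, 34.4% at Col1a2, 52.8% at Col3a1, 73.1% at Col5a1, 50.1% at Col6a3 and 45.4% at Col12a1. H3K4me2 covered 20.7%, 61.3%, 12.8%, 98.7%, 0% and 100% in the same order, so that the Col6a3 peak had no counterpart. Fibroblasts covered 0%, 0%, 0%, 97%, 94.4% and 30.4%. The broad peaks of Col1a1, Col1a2 and Col3a1 therefore had no fibroblast peak at all, 3 of 6 where 19.8% of all 368 broad WT peaks had none. Under 50% of the length was covered at 3 of the 6 in replicate 1 (39.9% of all 368), 3 in H3K4me2 (44.3%) and 4 in fibroblasts (54.1%). None of the 6 lacked a replicate 1 peak (13.3% of all 368), and 1 lacked an H3K4me2 peak (25.5%).

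The narrowPeak lists differed in breadth as well. Deletion peaks lay over 96.7%, 91.8%, 81.1%, 86.1%, 85.8% and 74.2% of these 6 WT peaks. By distance from the TSS, replicate 2 covered 46.7%, 26.0%, 38.3%, 61.3%, 63.1% and 58.6%, and at Col1a1 it did so with 11 peaks of at most 2293 bp. A segment called as a single peak in WT was thus called as many peaks in replicate 2. The fibroblast list exists only in the 5-column layout, so for its comparison with WT the cell type and the layout cannot be told apart. Replicate 1 shares that layout and had a peak at each of the 3 promoters without a fibroblast peak, but it had none at Col2a1 and Sox9, which replicate 2 and WT covered broadly. The part of the layout in the missing fibroblast peaks at Col1a1, Col1a2 and Col3a1 was not tested. WT also had promoter peaks at 9 of the 12 fibroblast markers where replicate 1 had 4, and the part of this in the broad peaks was not tested.

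**Figure D5:**
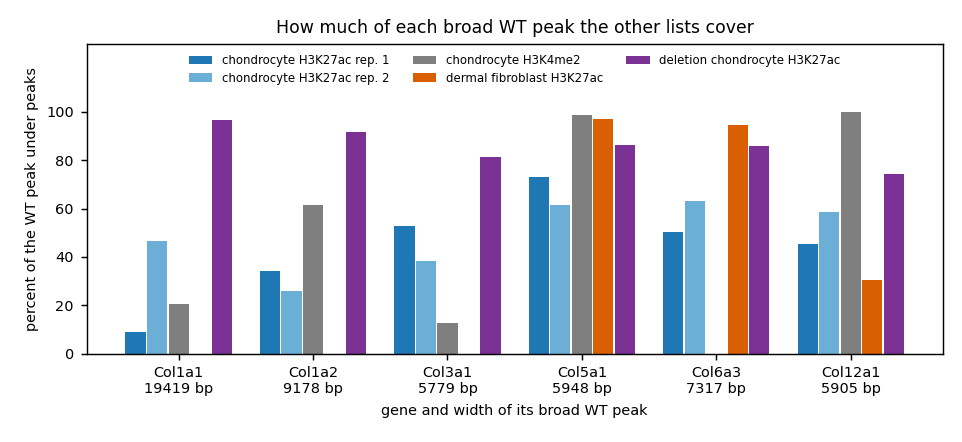
Percent of each broad WT H3K27ac peak (x axis, gene and peak width) that lies under peaks of 5 other lists (bars, starting at 0). Fibroblast bars are at 0 for Col1a1, Col1a2 and Col3a1 and at 97% and 94.4% for Col5a1 and Col6a3, and the deletion bars lie between 74.2% and 96.7%.

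In the list from mice without the Sox9 enhancers E160 and E308, 9 of the 10 collagen promoters had a peak (47.1% of all genes). The exception was Col14a1, whose WT peak was 411 bp wide, and a promoter peak in WT and none in the deletion list occurred at 2.89% of all genes. WT itself lost this Col14a1 call with a 500 bp window, in its higher-scoring 50% and with equal numbers of top peaks. Coverage of the gene body was lower in the deletion list at 10 of 10 genes. This was the case for 52.4% of all genes and for 95.1% of those with a WT peak in the gene body, as all 10 have, so the count is near its background. The differences ran from -0.937 points at Col5a2 to -29.1 points at Col1a2, where it was 53.2% in WT and 24.1% in the deletion list. At Col1a1 it was 95.1% and 88.9%. Of 112 WT peaks in the 8 regions, 63 (56.3%, 46.6% to 65.6%) had no deletion peak, against 37.2% of all WT peaks. Outside promoters 62 of 98 had none (63.3%, 52.9% to 72.8%), against 50.9%, with 40 of 48 in the gene bodies and 22 of 50 in the flanks. No whole-list share for gene bodies or flanks apart stands beside these counts, so they cannot be judged against a background. By region, the share ran from 5 of 16 at Col6a1 and Col6a2 to 10 of 14 at Col12a1. All 68 deletion peaks overlapped a WT peak (0% without, 0% to 5.28%), where 1.12% of all deletion peaks, and 1.84% of those outside promoters, did not. The deletion list held 25213 peaks and WT 33369. When both lists were reduced to the same number of highest-scoring peaks, the share without a deletion peak near the collagen genes was 28.3%. The share over the whole WT list was not computed at that reduction, so 28.3% has no background beside it. With 1 library per genotype, the difference has no replicate check.

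The overlap of H3K27ac with H3K4me2 at these genes differed between the chondrocyte lists. Of 39 replicate 1 peaks, 34 (87.2%, 72.6% to 95.7%) overlapped an H3K4me2 peak, and 9.82% of all replicate 1 peaks lacked one. Without H3K4me2 were the Col3a1 promoter peak and 4 others. Col12a1 and Col14a1 had H3K4me2 at the promoter and no replicate 1 H3K27ac peak, as did 22.8% of all genes. Of 112 WT peaks, 55 (49.1%, 39.5% to 58.7%) had an H3K4me2 peak, against 79.4% of all WT peaks. Outside promoters 42 of 98 (42.9%, 32.9% to 53.3%) had one, against 70.7%.

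Related gene lists set these values in context. The 8 cartilage collagen genes (Col2a1, Col9a1, Col9a2, Col9a3, Col10a1, Col11a1, Col11a2 and Col27a1) had 5, 7, 6, 0, 7 and 7 promoters with a peak in replicate 1, replicate 2, H3K4me2, fibroblasts, WT and the deletion list. Fibroblasts thus marked no cartilage collagen promoter and 7 of the 10 connective tissue collagens. Of 16 genes for collagen synthesis and cross-linking, 11, 13, 14, 13, 16 and 15 were marked in the same order. Serpinh1, the collagen chaperone, and Lox, which cross-links collagen, were marked in every list. Adamts2 and Plod2, which trim and hydroxylate the chains, had a promoter peak in fibroblasts and in WT, and in neither chondrocyte replicate. Plod2 also had one in the deletion list. Coverage of the Plod2 gene body was 11.9% in replicate 1, 15.1% in replicate 2 and 28.6% in WT, against 1.55% in fibroblasts. At Adamts2 the order was the other way, with 4.9% in fibroblasts and less in both replicates and WT. Pcolce and Loxl1 had no promoter peak in fibroblasts and had one in replicate 2 and WT. Replicate 1 marked Loxl1 and not Pcolce. Fibroblast peaks nevertheless covered 50.8% of the Pcolce gene body, against 23.7% in replicate 1, 22.3% in replicate 2 and 57.3% in WT. At Loxl1 fibroblasts covered 6.44%, against 14.6%, 16.9% and 54.5% in the same order.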

How the data were processed

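Peak lists of 6 samples were used as the authors deposited them, and the input library of the series was not analysed here. Per the labels, the submitters' processing notes name fastp, Bowtie2 2.4.4, MACS2 2.2.4 and mm9. The authors deposited 1 list per library. The 5-column lists hold a position, a name and a score deposited by the authors, in the layout of earlier MACS releases. The narrowPeak lists hold the authors' score, fold enrichment over the local background (a ratio), −log10 p and −log10 q.

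The 10 genes, the gene lists, the promoter motifs and the alternatives were chosen with earlier results of these data known. All 10 genes are described, by promoter, widest and highest-scoring peaks, and single peaks are named by rank where a partner is missing. Genes were placed with GENCODE vM1 (mm9), and for replicate 2 with RefSeq positions on GRCm38, matched by symbol. No coordinate was converted. With GRCm38 positions replicate 2 marked 43.1% of all promoters, and with mm9 positions 6.24%. Replicate 2 distances were set to the mm9 start by promoter sequences found once in mm9, for Col12a1 by the 3′ end and otherwise by the start of both gene models, in the maps, the broad peak coverage and the replicate comparison. The 19 autosomes and X were used, with at least 1 bp of overlap counted as shared. Exons of protein-coding transcripts were merged and numbered from the 5′ end. Shares carry exact binomial (Clopper-Pearson) 95% intervals (scipy 1.17.1). Shares outside promoters were added after the data were seen. Groups of 1 or 2 libraries allow no test, so none was made. Scripts were tested on simulated lists and overlaps were checked with bedtools 2.31.1 (Python 3.11.15, numpy 2.4.6, pandas 2.3.3, matplotlib 3.10.9).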

Additional observations from a re-analysis of the deposited data

How the results depend on the processing

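No paired analysis was possible because replicate numbers exist in the chondrocyte H3K27ac group alone. Promoter counts stayed within 1.5 times under windows of 500 bp and 2 kb, any annotated start, the higher-scoring 50% or equal numbers of peaks per list and, chosen after the data were seen, RefSeq starts and mm9 starts for replicate 2 (9 of 10 marked). The exception was H3K4me2, which marked 5 promoters in its higher-scoring 50% and 4 with equal numbers of top peaks. In the higher-scoring 50%, Col1a1 and Col3a1 lost their promoter peak in both replicates, and Col6a3 and Col14a1 in fibroblasts. Col12a1 gained a replicate 1 peak at 2 kb, Col1a2 lost its replicate 1 peak at 500 bp, and Col1a2 gained a fibroblast peak with any annotated start. Leaving out a replicate gave 7 to 8 marked promoters. Fibroblast coverage exceeded chondrocyte coverage at 3 genes in the higher-scoring 50% and at 1 with WT. Single genes kept the sign of that difference in 36 of 50 settings, were at 0 in 2 (Col1a1 and Col3a1, higher-scoring 50%) and reversed in 12: in the higher-scoring 50% Col1a2 (-8.58 points), Col6a3 (-5.12) and Col12a1 (-1.14), with WT Col1a2 (-44.5), Col5a1 (-2.15), Col6a2 (-0.689), Col6a3 (-2.08) and Col12a1 (-7.18), with replicate 2 Col5a2 (1.22), Col12a1 (-0.193) and Col14a1 (1.58), and with equal numbers Col5a2 (0.792).

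Under 50% reciprocal overlap, the shares without a partner rose to 69.2% (replicate 1 without fibroblast), 75% (fibroblast without replicate 1) and 68.8% (WT without deletion), and the share of replicate 1 peaks with H3K4me2 was 53.8%. With WT in place of replicate 1, these were 67.9% and 25% for the fibroblast comparisons and 49.1% for H3K4me2. In the higher-scoring 50%, 25% of fibroblast peaks (n = 20) and 29.3% of WT peaks lacked a partner. Equal numbers of top peaks gave 28.3% for WT without deletion and 48.4% for H3K4me2, and merging peaks under 1 kb apart gave 41.9% for WT without deletion. The windows of 20 and 100 kb moved no share beyond its interval. Broad WT peaks numbered 10 at a minimum of 3 kb and 2 at 8 kb, and at 8 kb replicate 1 covered 17.0% and fibroblasts 0% of their length, against 34.8% and 27% at 5 kb. The cause of these changes was not tested. Peak lists without read numbers do not separate a missing mark from a shallow library.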
